A study of Mus musculus with 7 samples.

Results

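Long non-coding RNAs are transcripts that are processed like messenger RNA but are not translated, and some of them act in the nucleus on the genes around them. Kcnq1ot1 is the best known of the genes described here: it is made from the paternal chromosome, antisense to the potassium channel gene Kcnq1, and in placenta and embryo it silences neighbouring genes of the imprinted Kcnq1 domain in cis. The other 6 genes, Gm17821, A130077B15Rik, A630089N07Rik, Gm10845, 4933421O10Rik and A930013F10Rik, carry only working names, and no function is given for them here. All 7 of the listed symbols were found among the 23725 Entrez gene IDs of the count files. They were selected on the counts themselves, for high counts or for a difference between tumor-bearing and tumor-free mice, so their levels and their group differences are descriptions with no test attached. Of the 7, 6 are long non-coding RNAs in RefSeq, which has 1819 IDs of that class in the files, and Gm17821 is annotated as a pseudogene.

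The libraries came from osteoblasts, the bone-forming cells, of 4 tumor-bearing and 3 tumor-free C57BL/6 mice, all male, with 1 library per mouse. Every mouse carried the same alleles, KrasLSL-G12D/WT;p53Flox/Flox with a GFP reporter under the osteocalcin (Ocn) promoter, and lung tumors were started by adenoviral Cre (AdCre) given into the trachea 14 weeks before the tumor-bearing mice were taken; whether the tumor-free mice received a virus is not stated. Sorting took 2000 GFP-positive cells per mouse that lacked CD45, CD31 and Ter119, from a pool of digested bone and lineage-depleted marrow. The 5 mice of 31 weeks comprised tumor-bearing replicates 1 to 3 and tumor-free replicates 1 and 2, and the 2 mice of 23 weeks were tumor-bearing replicate 4 and tumor-free replicate 3.

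Depth was low and uneven, from 77127 counts (tumor-bearing replicate 1) to 169774 (tumor-bearing replicate 3), a 2.2-fold range. The tumor-free libraries lay between 102144 and 122911 counts. Of 10 osteoblast markers, 5 averaged at least 10 counts, and Bglap, the osteocalcin gene behind the reporter, had 0 to 2 counts per library. Of the endothelial markers, Pecam1, Kdr and Tek had 0 counts in all 7 libraries and Cdh5 had 0 to 1. The 4 erythroid markers in the files summed to 3 to 8 counts with a tumor and 7 to 12 without. Of 8 leukocyte markers, Itgam, an integrin gene of myeloid cells, had 19 to 45 counts with a tumor and 22 to 35 without, more than most of the osteoblast markers, and no other exceeded 2. Summed over the 10 osteoblast markers the level was 954 to 1517 CPM (counts scaled to a common library total) in tumor-bearing libraries and 1365 to 2369 CPM in tumor-free ones, and over the 8 leukocyte markers 271 to 290 and 195 to 313 CPM.

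The sequences at the ends of these transcripts are shown first, because libraries of this kind read the 3′ end of a transcript next to its poly(A) tail. GENCODE vM21 (build mm10) held a transcript for 6 of the 7 genes, all on the minus strand; none was found for A930013F10Rik. The last 60 bases of each longest transcript follow, 5′ to 3′. Capitals mark the last AATAAA, the 6 bases of the polyadenylation signal, or else its variant ATTAAA. For A630089N07Rik, which GENCODE annotates as coding, only 30 bases around the marked stretch are given.
Kcnq1ot1, chr7:143203458-143203517: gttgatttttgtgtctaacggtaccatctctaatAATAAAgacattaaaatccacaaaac
Gm17821, chr12:67658527-67658586: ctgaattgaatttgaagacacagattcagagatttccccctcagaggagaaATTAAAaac
A130077B15Rik, chr10:122565023-122565082: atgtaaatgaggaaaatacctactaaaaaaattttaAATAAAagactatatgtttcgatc
A630089N07Rik, chr16:98062524-98062553: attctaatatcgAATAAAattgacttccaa
Gm10845, chr14:79860521-79860580: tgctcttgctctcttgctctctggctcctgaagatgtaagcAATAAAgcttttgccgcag
4933421O10Rik, chr4:33027142-33027201: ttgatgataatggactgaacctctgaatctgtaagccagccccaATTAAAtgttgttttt

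All 6 ends held one of the 2 sequences on the transcript strand, AATAAA in 4 and ATTAAA in Gm17821 and 4933421O10Rik. The ATTAAA of Gm17821 lies only 3 bases before the transcript end, where the other marked sequences lie 10 to 24 bases before theirs. For Kcnq1ot1 and Gm17821 the printed end differs from that of the RefSeq gene, at bases 143213111 and 67657107. Which gene models were counted is not stated, and whether these ends are the ones read was not tested. Among the longest transcripts of 23035 genes of the files, 67.1% held either sequence in their last 60 bases, and among those of 1645 long non-coding RNAs 63.7% did. Such a sequence in the last 60 bases is thus common among transcripts in general.

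Kcnq1ot1 was far longer than the others and had the longest internal run of A. Its unspliced transcript is 93092 bases long in GENCODE, which ends it beyond the RefSeq gene, where the other 5 measure between 1693 and 3847 bases. It held 21 separate A-rich stretches (at least 11 A in a window of 12 bases, outside the last 100 bases), or 0.226 per kb, and its longest run had 41 A. The window of 60 bases that holds this run, from base 69556 to 69615 of the transcript, is shown on the minus strand with the run in capitals.
Kcnq1ot1, chr7:143226935-143226994: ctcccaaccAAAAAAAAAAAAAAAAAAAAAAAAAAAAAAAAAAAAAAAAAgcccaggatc

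In the other 5 transcripts the longest run was 5 to 8 A, and 4933421O10Rik alone of them had an A-rich stretch, a single one, or 0.26 per kb. Over all genes with a sequence 18.2% had at least 1 A-rich stretch, and over 184 such genes with a mean of at least 100 counts 58.7%, but among the 10 genes with the highest means 30%. Short sequences that occur in transcripts of at least 50 genes (25 bases, either strand) were found in Kcnq1ot1 (106 positions, 0.114% of its sequence) and A130077B15Rik (20 positions, 0.793%), and in none of the other 4 transcripts. Such sequences were present in 14.4% of all genes with a sequence and in 58.2% of those with a mean of at least 100 counts. Gm17821 and A630089N07Rik, which rank 2 and 4 by mean count, had neither feature in the transcript searched. The RefSeq gene of Gm17821 extends past the end of that transcript, to base 67657107, and this part was not searched. Whether either feature bears on the counts was not tested.

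Kcnq1ot1 had nearly the same count in every library whatever the depth. It had 291, 289, 298 and 303 counts in tumor-bearing replicates 1 to 4 and 286, 279 and 295 counts in tumor-free replicates 1 to 3. The shallowest library thus gave more counts than all 3 tumor-free libraries except replicate 3, and the deepest library had 7 counts more than the shallowest. These are counts of transcript ends and are not divided by length.

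Gm17821, A130077B15Rik and A630089N07Rik followed in rank. Gm17821 had 269, 274, 294 and 292 counts in the tumor-bearing libraries and 274, 282 and 287 in the tumor-free ones. A130077B15Rik had 242, 252, 275 and 267 counts with a tumor and 252, 266 and 260 without, and A630089N07Rik 210, 248, 270 and 262 with and 236, 228 and 255 without. For each of the 3 genes tumor-bearing replicate 1, the shallowest library, was lowest and tumor-bearing replicate 3, the deepest, was highest, and the groups overlapped.

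These 4 were the genes with the highest mean counts of all 23725, ahead of H2-Q4 (193 to 261 counts), a class I histocompatibility gene, and of Zfp937, Prickle2, Grk4, Zfp65 and Acad9, which complete the first 10. The next non-coding gene, Gm10845, ranked 13 of all genes and behaved differently. It had 250, 134, 224 and 191 counts in the tumor-bearing libraries and 192, 195 and 164 in the tumor-free ones. The shallowest library held its highest count and tumor-bearing replicate 2 its lowest. Below these came long non-coding RNAs outside the set: E330033B04Rik had 93 to 208 counts and Malat1, an abundant nuclear transcript of most cells, 97 to 175.

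The last 2 genes had lower counts. 4933421O10Rik had 79, 28, 25 and 66 counts with a tumor and 8, 11 and 8 without. A930013F10Rik had 4, 14, 12 and 23 counts with a tumor and 19, 22 and 49 without. Counts of 4933421O10Rik did not overlap between the groups, while those of A930013F10Rik did, in tumor-bearing replicate 4. On scaled values 1.72% of the genes tested lay higher in every tumor-bearing library. For unscaled counts this share was not taken.

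**Figure D1:**
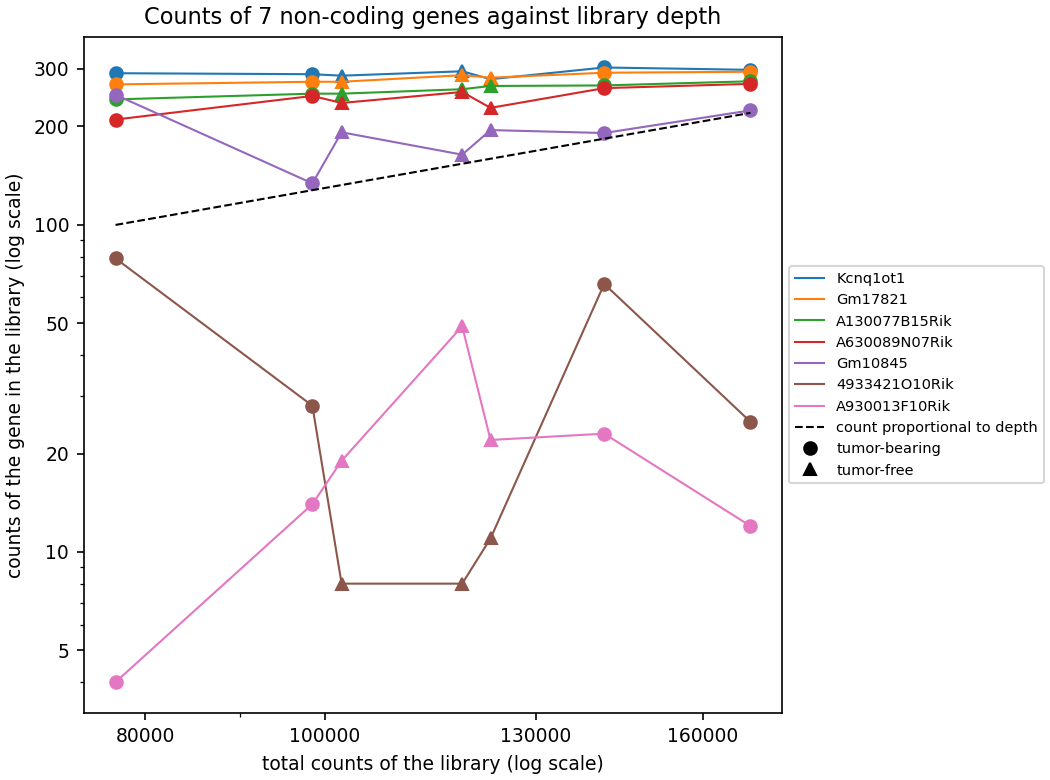
Counts of the 7 non-coding genes (vertical axis, log scale) against the total counts of the library (horizontal axis, log scale); circles are tumor-bearing and triangles tumor-free libraries, and the dashed line has the slope of a count proportional to depth. Kcnq1ot1, Gm17821, A130077B15Rik and A630089N07Rik stay between 210 and 303 counts while depth varies 2.2-fold.

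The relation to depth was measured as the slope of log2(count + 0.5) on log2(total count) over the 7 libraries, where 1 means that a count is proportional to depth and 0 that it does not follow it. The slope was 0.05 (SE 0.04) for Kcnq1ot1, 0.13 (SE 0.02) for Gm17821, 0.17 (SE 0.01) for A130077B15Rik and 0.28 (SE 0.08) for A630089N07Rik. Over the 2445 genes with a mean of at least 10 counts the median slope was 1.08. All 4 slopes lay far below proportion, and without any single library they ranged from 0.03 to 0.31 over the 4 genes.

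Slopes fell with the level of a gene in general. The median was 1.21 over 1325 genes with a mean of 10 to under 30 counts, 1.01 over 932 genes from 30 to under 100, and 0.80 both over 145 genes from 100 to under 150 and over 33 genes from 150 to under 200. Over the 10 genes with a mean of at least 200 it was 0.32, and 8 of these 10 lay below 0.5. Low slopes were thus also found among coding genes of similar counts, such as Prickle2 at 0.20 (SE 0.08) and H2-Q4 at 0.37 (SE 0.06). The values of the 3 remaining genes were imprecise. Gm10845 had a slope of 0.01 (SE 0.35), which was 0.65 without tumor-bearing replicate 1. The slope of 4933421O10Rik was -0.57 (SE 1.59), and 1.73 without tumor-bearing replicate 1. For A930013F10Rik it was 1.35 (SE 1.12), with -0.41 when tumor-bearing replicate 1 was left out and 3.03 when replicate 3 of that group was.

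The counts of the 3 highest genes also had a variance below their mean. If counts of equal mean differ only by counting noise, their variance over their mean is about 1. Over 7 libraries this ratio is imprecise, and whether any gene varied less than counting noise was not tested. This ratio over the 7 libraries was 0.217 for Kcnq1ot1, 0.335 for Gm17821 and 0.487 for A130077B15Rik. Of the 1120 genes with a mean of at least 30 counts, these 3 were the only ones with a variance below their mean; the other 72 genes below 1 had means of 10 to under 30. The median ratio was 5.01 over the 2445 genes. A630089N07Rik had a ratio of 1.78, Gm10845 7.38, A930013F10Rik 9.87 and 4933421O10Rik 26, so the last 4 varied more than their means.

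**Figure D2:**
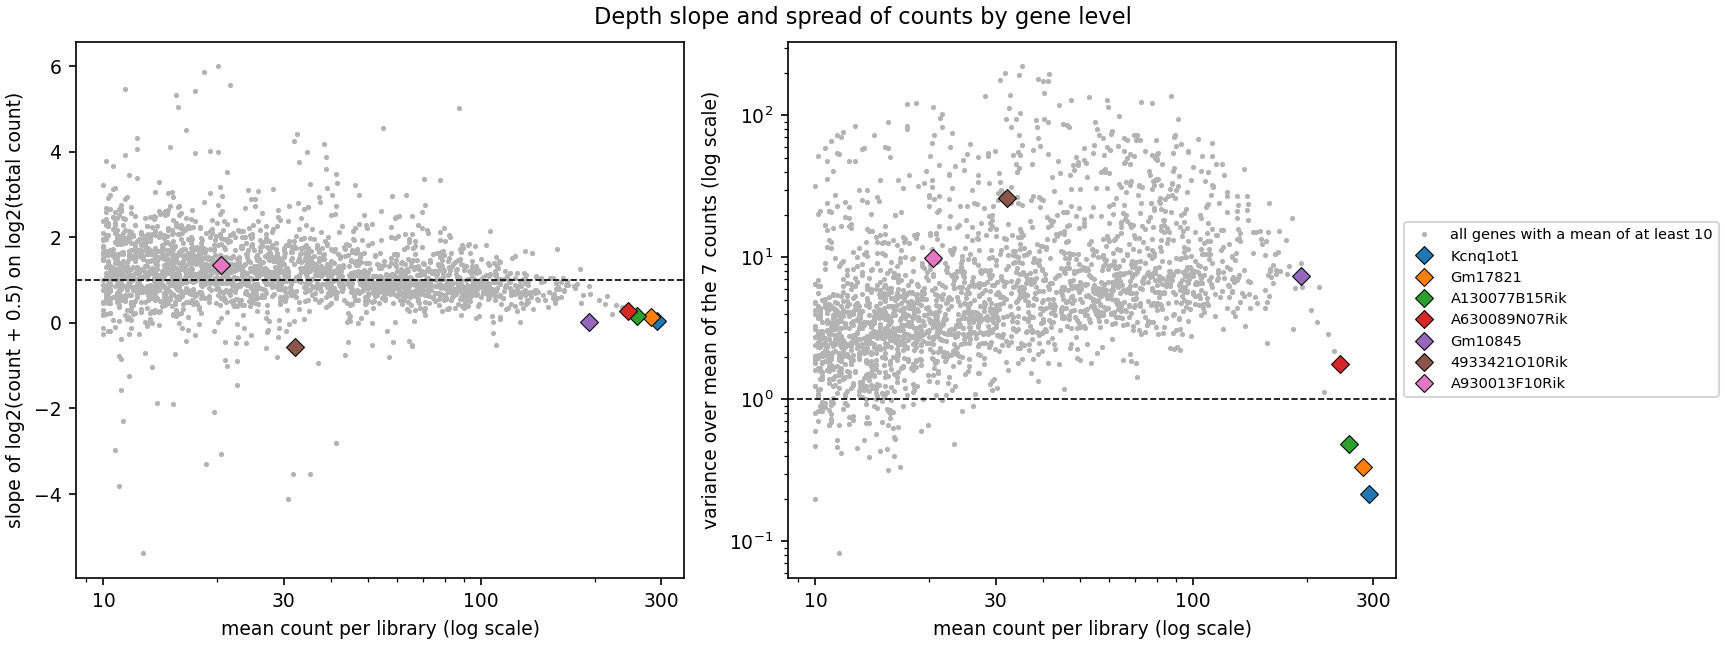
Left, slope of log2(count + 0.5) on log2(total count) for each of 2445 genes, and right, variance over mean of its 7 counts (log scale), against mean count per library (log scale); grey points are all genes with a mean of at least 10, diamonds the 7 non-coding genes, and dashed lines mark 1. The 4 genes with the highest means lie at slopes of 0.05 to 0.28, and 3 of them lie below 1 in the right panel.

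Because these counts hardly followed depth, their share of a library did. The 7 genes together held 1345, 1239, 1398 and 1404 counts in tumor-bearing replicates 1 to 4 and 1267, 1283 and 1318 in tumor-free replicates 1 to 3. As a share of the library this was 1.74%, 1.26%, 0.823% and 0.992% with a tumor and 1.24%, 1.04% and 1.11% without. The highest and the lowest share were both in tumor-bearing mice of 31 weeks, and belonged to the shallowest and the deepest library. All long non-coding RNAs together took 7.69% to 8.42% with a tumor and 7.43% to 7.85% without. Relative to its size, that share varied less between libraries than the share of the 7 genes.

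The comparison between the groups asked whether osteoblast transcripts differ when a lung tumor is present. Levels were scaled by TMM, a library scaling that assumes most genes do not change, and given in CPM. Across the 2495 genes with enough counts, which include all 7 of these, edgeR's quasi-likelihood test with age as a covariate called 0% of genes at an adjusted p of 0.05. At an unadjusted p under 0.05 it found 70 genes, and DESeq2 and limma voom likewise called 0 after adjustment, with 49 and 92 at an unadjusted p under 0.05. In sorted bulk cells, fewer cells of a kind and less RNA per cell cannot be told apart.

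The groups overlapped for the 5 highly counted genes. For the first 4 of them the scaled level was highest in the shallowest library and lowest in the deepest, so it restates depth, and whether it measures expression was not tested. How the molecular identifiers were handled is not stated either, so overlap here is no sign of equal expression. Kcnq1ot1 had 3903, 3030, 1662 and 2076 CPM in tumor-bearing replicates 1 to 4 and 2816, 2363 and 2420 CPM in tumor-free replicates 1 to 3. Its mean was 2668 ± 1003 CPM (SD, n = 4) with a tumor and 2533 ± 247 CPM (SD, n = 3) without, a log2 fold change (tumor-bearing over tumor-free) of 0.03 (SE 0.29). The tumor-free values lay inside the range of the tumor-bearing ones. Gm17821 had 2530 ± 885 and 2480 ± 189 CPM (log2 fold change -0.01, SE 0.27), A130077B15Rik 2313 ± 779 and 2289 ± 177 CPM (-0.03, SE 0.26) and A630089N07Rik 2179 ± 628 and 2116 ± 197 CPM (0.01, SE 0.25). The difference of each was a small part of its SE, and the sign of all 4 turned under some of the 20 alternative fits. On the unscaled counts the means were 295 ± 6.45 and 287 ± 8.02 for Kcnq1ot1 and 282 ± 12.6 and 281 ± 6.56 for Gm17821 (tumor-bearing and tumor-free, SD, n = 4 and 3).

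Gm10845 had 3353, 1405, 1249 and 1309 CPM with a tumor and 1891, 1652 and 1345 CPM without. Tumor-bearing replicate 1 stood far above the other 6 libraries, which spanned 1249 to 1891 CPM. The means were 1829 ± 1018 and 1629 ± 273 CPM, with a log2 fold change of 0.10 (SE 0.35), and without tumor-bearing replicate 1 the value was -0.30.

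4933421O10Rik was higher in every tumor-bearing library. It had 1060, 294, 139 and 452 CPM in tumor-bearing replicates 1 to 4 and 78.8, 93.2 and 65.6 CPM in tumor-free replicates 1 to 3. The tumor-bearing libraries spread widely among themselves, and the lowest of them, replicate 3, still lay above all tumor-free ones. The mean was 486 ± 403 CPM with a tumor and 79.2 ± 13.8 CPM without, and the log2 fold change of 2.52 (SE 0.79) was the second highest of the 2495 genes, which ranged from -2.92 to 3.43. Among all genes tested 1.72% had every tumor-bearing library above every tumor-free one. This gene was chosen on these same counts and passed the low count filter only through its tumor-bearing libraries. Its rank and its separation thus depend in part on that choice. Without tumor-bearing replicate 1 the log2 fold change was 1.79. Tumor-bearing replicate 1 was also the shallowest library; the part of depth in this difference was not tested.

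A930013F10Rik was lower in every tumor-bearing library on the scaled values. It had 53.6, 147, 66.9 and 158 CPM with a tumor and 187, 186 and 402 CPM without. The nearest values of the 2 groups were 158 CPM in tumor-bearing replicate 4 and 186 CPM in tumor-free replicate 2, and 1.60% of all genes tested had every tumor-bearing library below every tumor-free one. The means were 106 ± 53.5 and 258 ± 124 CPM, a log2 fold change of -1.18 (SE 0.34), and without any single library it ranged from -1.47 to -1.07. Tumor-free replicate 3, the 23-week mouse, held the highest value. A930013F10Rik was also chosen on these counts, and it passed the low count filter only with the help of its tumor-free libraries.

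**Figure D3:**
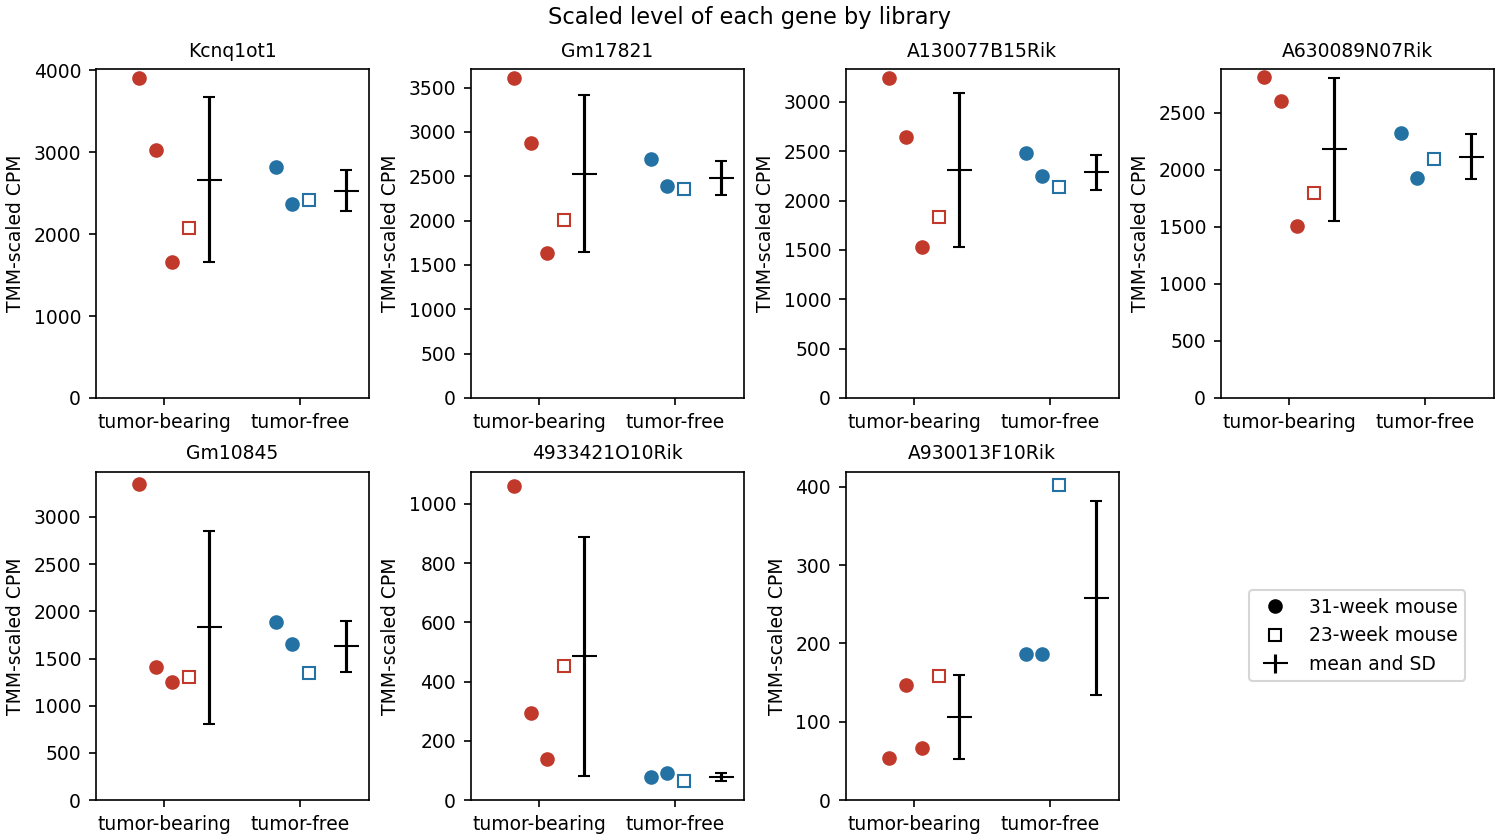
TMM-scaled CPM of each of the 7 genes (linear axes from 0) in tumor-bearing (red, left) and tumor-free (blue, right) libraries; filled circles are mice of 31 weeks, open squares mice of 23 weeks, and black bars give mean and SD. For 5 genes the groups overlap, while 4933421O10Rik lies at 139 CPM or above with a tumor and at 93.2 CPM or below without.

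The same fit also compared the 5 mice of 31 weeks with the 2 of 23 weeks and called 0% of the 2495 genes (edgeR, 124 at an unadjusted p under 0.05; DESeq2 85 and limma voom 171, each with 0 after adjustment). A930013F10Rik had 128 ± 64.2 CPM at 31 weeks (SD, n = 5), against 158 CPM in the tumor-bearing and 402 CPM in the tumor-free mouse of 23 weeks. Its log2 fold change (31 over 23 weeks) was -0.98 (SE 0.35). Tumor-free replicate 3 thus enters both this difference and the one between tumor-bearing and tumor-free mice, so the age values of these genes are descriptions as well. Kcnq1ot1 had 2755 ± 828 CPM at 31 weeks and 2076 and 2420 CPM at 23 weeks, with a log2 fold change of 0.28 (SE 0.32). The other 5 ranged from 0.14 (SE 0.79) for 4933421O10Rik to 0.50 (SE 0.40) for Gm10845. All 7 overlapped between the ages, where 3.65% of the genes tested had every 31-week library above both 23-week ones and 4.69% had every one below.

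Many genes next to these loci had no counts, which is common in these libraries: 43.8% of all 23725 IDs had 0 counts in every library. Kcnq1ot1 (chromosome 7, 143213111 to 143296547 in RefSeq, minus strand) lies within Kcnq1, which encodes a voltage-gated potassium channel, and Kcnq1 had 0 counts in all 7 libraries, as had Trpm5, a cation channel gene and the nearest counted gene on the lower side. The limit that a count of 0 allows is 3 counts, which corresponds to 17.7 CPM at the greatest depth and 38.9 CPM at the lowest. The lncRNA 4933417O13Rik, 26224 bases away, had 1 count in all. The sources used here do not name the strand setting of the counting, so reads of the overlapping antisense partners could not be told apart by strand. None of the counts in this interval was assigned to Kcnq1.

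Of 20 listed genes of the Kcnq1 domain and its flanks, 7 had 0 counts in every library, among them Phlda2 and Ascl2, 2 placental genes that Kcnq1ot1 silences. Over all coding IDs 40.6% were at 0 throughout, so this count is no result about the domain. Cdkn1c, a cell cycle inhibitor in the domain, had 0 to 2 counts with a tumor and 0 to 1 without, and Igf2, a growth factor of the adjoining domain, 2 to 9 and 2 to 6. Only Tnfrsf26, a gene of the tumor necrosis factor receptor family, was tested, with 5, 13, 22 and 20 counts with a tumor and 4, 7 and 12 without (log2 fold change 0.89, SE 0.38; adjusted p = 0.99, edgeR). With so few counts, no statement on silencing in this domain can be made from these libraries.

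4933421O10Rik (chromosome 4, 33027139 to 33031323) starts 56 bases from Ube2j1, which encodes a ubiquitin-conjugating enzyme of the endoplasmic reticulum and is transcribed the other way. Ube2j1 had 0 counts in all 7 libraries, although its partner reached 79. The shared promoter is printed from RefSeq (GRCm38.p6, the same assembly as mm10) on the minus strand, that of 4933421O10Rik, with the 56 bases between the 2 starts in capitals.
4933421O10Rik, chr4:33031274-33031573: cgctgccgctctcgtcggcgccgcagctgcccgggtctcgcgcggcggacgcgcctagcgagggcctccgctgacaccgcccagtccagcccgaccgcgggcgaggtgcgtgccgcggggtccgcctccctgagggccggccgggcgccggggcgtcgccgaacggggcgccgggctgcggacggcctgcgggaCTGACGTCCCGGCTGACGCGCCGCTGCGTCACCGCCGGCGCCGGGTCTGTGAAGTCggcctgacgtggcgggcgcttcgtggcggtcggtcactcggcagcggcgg

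This window of 300 bases held 57 CG dinucleotides, where the median of 32851 promoters of the same length was 7 and 0.152% held as many or more. On the other side, 4958 bases away, Rragd, a GTPase that relays amino acid supply to mTORC1, had 24, 19, 31 and 30 counts with a tumor and 18, 15 and 17 without. These counts did not overlap between the groups, but scaled they were 322, 199, 173 and 206 CPM with a tumor and 177, 127 and 139 CPM without, which overlapped (log2 fold change 0.56, SE 0.32; adjusted p = 0.99, edgeR). Ube2j1, at 0 throughout, was not tested.

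A930013F10Rik (chromosome 8, 22634371 to 22636809) lies inside Polb, the gene of DNA polymerase beta, and Polb had 0 counts in every library, as had Ikbkb, a kinase of NF-kappa-B signalling, 22395 bases away. Dkk4, a secreted Wnt inhibitor 6352 bases to the other side, had 0 to 1 counts. A130077B15Rik (chromosome 10, 122565023 to 122569891) had as its nearest genes with a row in the files Avpr1a, a vasopressin receptor gene, and the microRNA gene Mir6412, both at 0. Gm10845 (chromosome 14, 79860521 to 79869176) lies between Pcdh8, a protocadherin gene, and Olfm4, a secreted glycoprotein gene, again both at 0.

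Gm17821 (chromosome 12, 67657107 to 67668997) lies far from other counted genes. Mdga2, 434557 bases away, had 10 to 20 counts, and Rps29, a ribosomal protein gene 1488724 bases to the other side, 1 to 8. A630089N07Rik (chromosome 16, 98062512 to 98082439) has Zbtb21, a zinc finger gene, as its nearest counted gene on the lower side at 99884 bases, with 18, 21, 74 and 27 counts with a tumor and 14, 42 and 25 without. Mdga2 and Zbtb21 were tested and not called (log2 fold changes 0.09, SE 0.31, and 0.15, SE 0.40; adjusted p = 0.99 each, edgeR).

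**Figure D4:**
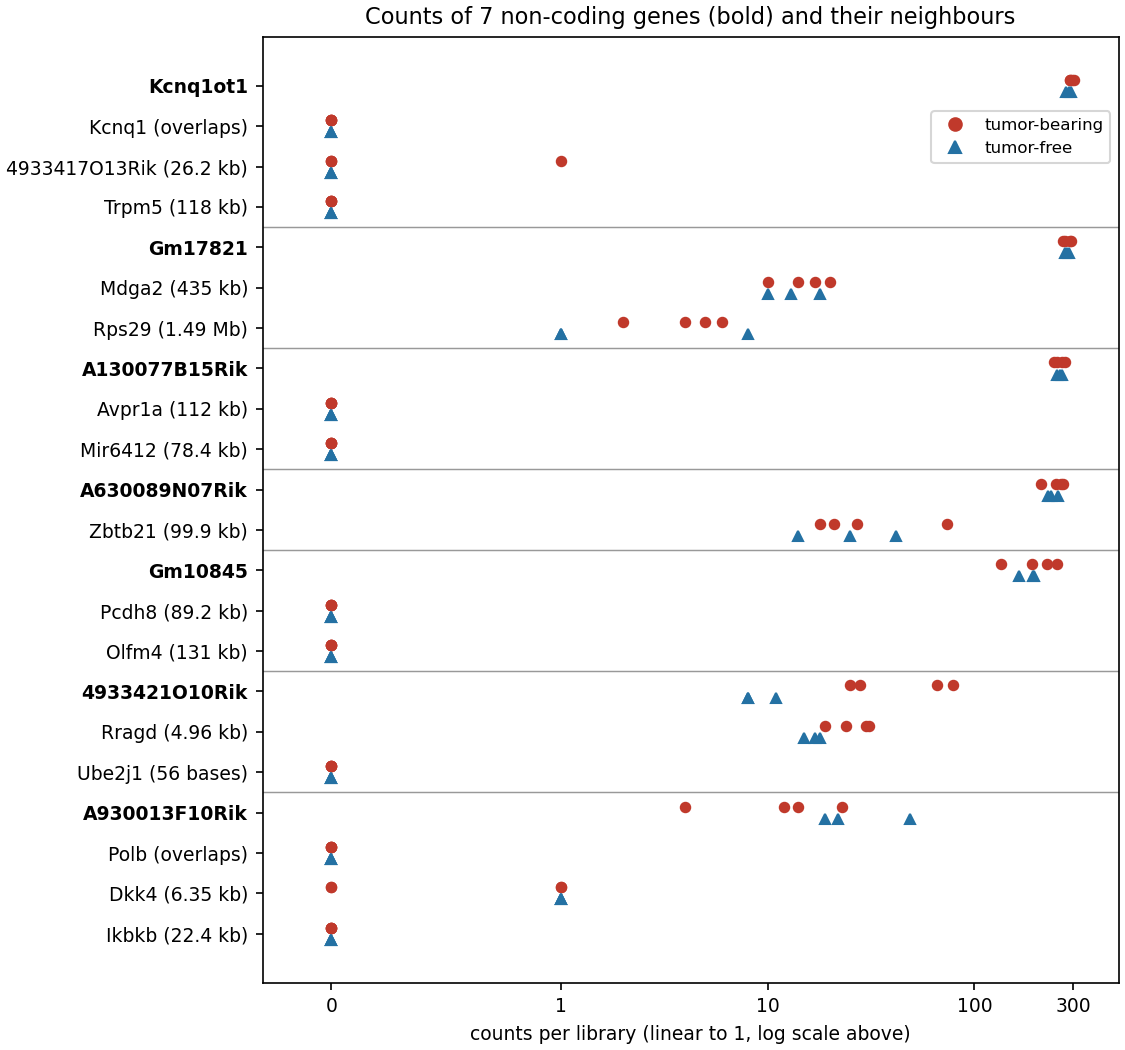
Counts per library (linear to 1, log scale above) of the 7 non-coding genes (bold) and of overlapping or nearest counted genes with the distance between them; red circles, drawn above, are tumor-bearing and blue triangles tumor-free libraries. Kcnq1, Ube2j1, Polb, Ikbkb, Trpm5, Avpr1a, Mir6412, Pcdh8 and Olfm4 lie at 0 in all 7 libraries.

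Well-known long non-coding RNAs gave a mixed background. Of 46 listed genes present in the files, 13 had 0 counts in every library, among them the small nucleolar RNA hosts Snhg1, Snhg3 and Snhg12; over all 1819 long non-coding IDs 829 (45.6%) did. Neat1, which builds nuclear paraspeckles, had 0 to 2. The 11 with at least 10 counts on average were all tested and none was called in either direction (edgeR, adjusted p of 0.99 or more), with 4 log2 fold changes above 0, 7 below and a median of -0.22. The median of all 2495 genes was 0.01 and that of the 211 long non-coding RNAs tested was 0.05. Malat1 had 104, 107, 154 and 175 counts with a tumor and 97, 143 and 118 without (log2 fold change 0.12, SE 0.23), and its depth slope was 0.72 (SE 0.22). Dnm3os, the precursor of a microRNA cluster of skeletal cells, had 59, 245, 108 and 124 counts with a tumor and 100, 139 and 85 without (0.28, SE 0.50). Meg3, an imprinted RNA of stromal cells, had 9 to 46 and 19 to 33 counts. Tsix, antisense to Xist, had 8 to 42 and 13 to 33 counts, and Xist itself 3 to 27 and 12 to 16 although all mice were recorded as male; reads of this overlapping pair cannot be assigned by strand here.

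Genes most like each of the 7 were named by Pearson correlation of log2 CPM over the 7 libraries, which share depth as a common divisor. For Kcnq1ot1 they were Gm17821 (r = 0.997), A130077B15Rik (0.992) and A630089N07Rik (0.984). Outside the set, H2-Q4 came closest to Gm17821 (0.979), Prickle2 to A130077B15Rik (0.984) and Zfp65 to A630089N07Rik (0.974), all among the 10 genes with most counts. Gm10845 was most like A830082N09Rik (0.983), Spag7 (0.982) and Prdm2 (0.959). For 4933421O10Rik the closest were Taok3 (0.978), Ptcra (0.941) and Polr2l (0.938), and for A930013F10Rik Agpat1 (0.975), Klf13 (0.961) and Naaa (0.959). Taok3, a protein kinase gene, had 20, 14, 14 and 20 counts with a tumor and 7, 9 and 7 without. It was picked for its likeness to 4933421O10Rik in these same libraries, so this split follows from the choice and is no separate result.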

How the data were processed

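A custom CEL-Seq method with unique molecular identifiers turned the RNA of 2000 cells per mouse into 3′ end libraries, per the labels' protocols. TopHat2 2.0.10, SAMtools and build mm10 are named in the submitters' processing notes. Which program counted, with which gene models and strand option, and how identifiers were handled, is not stated in what was used here. The authors deposited raw whole-number counts, 1 row per Entrez ID. RefSeq (GRCm38.p6) gave symbols to 23666 of 23725 IDs. No library repeated another (chi-square per degree of freedom 3.57 to 6.85 over 21 pairs).

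Genes were filtered with filterByExpr (minimum count 10, minimum total 15; 2495 genes), scaled by TMM (factors 0.960 to 1.06) and tested with edgeR 4.0.16 (glmQLFit, robust, age as a factor with 2 levels; Benjamini-Hochberg) in R 4.3.3. SEs are the log2 coefficient over the square root of F. Alternatives used DESeq2 1.42.0, limma 3.58.1, other scalings and filters, and each library left out. Slopes used a pseudocount of 0.5. Features were read from each gene's longest transcript in GENCODE vM21, available for 97.1% of genes; 25-base sequences with at least 23 bases of 2 kinds were left out.

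The genes and lists described were chosen with earlier results of these data known. Named genes were the 7, their overlapping and nearest RefSeq neighbours, the 10 with the highest mean count, the 3 most like each of the 7, and members of the lists with a mean of at least 10. Where the nearest neighbour has no row in the files, the nearest gene with one was taken instead. Any other gene named, markers included, was picked with its values in view. Whether mice of a group shared cages or litters is not recorded. The p-values treat each mouse as independent, which could not be checked. Counting errors cover counts only, since a count may be a read or a molecule.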

Additional observations from a re-analysis of the deposited data

Results flagged for a closer look

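In tumor-bearing mice, Gm10845 had 3353 CPM in replicate 1, far from the next highest value of 1405 CPM; this gap was 0.926 of the range of the 4 libraries. Among the 5 mice of 31 weeks, tumor-bearing and tumor-free together, 4933421O10Rik had 79 counts in tumor-bearing replicate 1 against 28 in the next library. As a scaled level it had 1060 CPM against 294 CPM. The gaps were 0.718 and 0.781 of the range. Tumor-bearing replicate 4, a mouse of 23 weeks and so outside that group, had 66 counts and 452 CPM. Among the 4 tumor-bearing libraries 4933421O10Rik was not flagged. The 3 flagged values came from 28 groups of values checked, and chance flags about 1 in 20. All 3 belong to the library with the fewest counts, and the part of depth in them was not tested.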

How the results depend on the processing

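Under every alternative fit run, edgeR, DESeq2 or limma voom called 0 genes with a tumor, and the log2 fold changes of 4933421O10Rik (1.79 to 2.86) and A930013F10Rik (-1.58 to -1.05) kept their sign. The other 5 stayed between -0.30 and 0.25, and each turned sign in 3 to 10 of 20 fits. The strict filter (30 counts in at least 3 libraries) removed 4933421O10Rik and A930013F10Rik, so it gave no value for them. Between ages, the number of genes called was 0, but 8 with no library scaling, 20 with no low count filter and 0 to 1 with 1 library left out, 1 without tumor-free replicate 3; none of the 7 was among them. With no library scaling the age difference turned to -0.06 for Kcnq1ot1, -0.06 for Gm17821, -0.03 for A130077B15Rik, -0.12 for A630089N07Rik and -0.44 for 4933421O10Rik; this setting drops the division by depth. For 4933421O10Rik it was -0.43 with limma voom and -0.67 to 0.49 with 1 library left out (-0.67 without tumor-bearing replicate 1), and the cause was not tested.

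With the number of genes detected as depth, slopes were 0.09 for Kcnq1ot1, 0.22 for Gm17821, 0.27 for A130077B15Rik, 0.56 for A630089N07Rik, -2.37 for 4933421O10Rik and 3.44 for A930013F10Rik; genes detected span a narrower range than totals. With the TMM effective library size A130077B15Rik had 0.15. With 1 library left out slopes ranged from -0.31 to 0.65 for Gm10845, -1.38 to 1.73 for 4933421O10Rik and -0.41 to 3.03 for A930013F10Rik. Same-numbered libraries did not deviate together (correlations -0.20, -0.12 and -0.14), and pairs with unlike numbers ranged from -0.26 to 0.24. With so few counts per gene this check cannot tell whether the numbers pair the mice. With the replicate block, without tumor-bearing replicate 4, 0 genes were called (37 at an unadjusted p under 0.05). At these depths 3 counts equal 17.7 to 38.9 CPM, which limits what a count of 0 can show.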
